A study of Homo sapiens with 8 samples.

Results

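The regions described here are the 348 regions of the list deposited for IMR90 cells that lie close to another listed region. Whether their positions come from NUP98 ChIP-Seq reads of IMR90 cells was not tested. They were chosen by position: on the chromosomes named 1 to 19, a region was taken when its gap to another region of the same chromosome was at most 10000 bp, and regions joined by such gaps formed a group. The rule found 348 clustered regions in 83 groups among 1301 regions on these chromosomes, and the remaining 953 regions were isolated. The whole list held 1400 regions, the other 99 of them on X, and the 3 lists of the series held 7104 regions. Because the gaps chose the members, group number and size are given as a description, with no test.

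NUP98 is a component of the nuclear pore complex, the channel between nucleus and cytoplasm. It also leaves the pore and moves within the nucleus, where it has been found on chromatin. ChIP-Seq with an antibody against such a protein yields short DNA fragments, and a peak caller reports the intervals where they accumulate.

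The series examined NUP98 in embryonic stem cells, neural progenitor cells, neurons and IMR90 cells, which are human lung fibroblasts. The stem cells were of the line HUES6, and the progenitors and neurons were derived from it. Of the 8 libraries, 3 came from IMR90 cells: 1 pull-down with the polyclonal antibody NUP98Ab1 (catalogue number 2292), 1 with the monoclonal antibody NUP98Ab2 (2598) and 1 with normal rabbit IgG (2729). The labels give fixation in 1% formaldehyde for 10 min for all libraries, while the study's text also describes a double fixation of IMR90 cells with formaldehyde and disuccinimidyl glutarate. The list names neither the antibody, the fixation nor the libraries it was called on. It gives no read numbers, sequencing depth was not used here, and with a single IMR90 list no value has an error from replicates.

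Positions are printed as listed and were not treated as human. The submitters' processing notes name hg19 and GRCh37. However, some regions lay past the last one of the embryonic stem cell (ESC) and neural progenitor cell (NeuPC) lists on that chromosome name. These were 11 clustered regions in 5 groups, each on another chromosome, and 42 isolated regions. The chromosome names 1 to 19 and X are also those used for the mouse. Which genome and build the positions belong to was not settled, since no genome sequence was used, and for the same reason no sequence of a group is shown and genes, assembly gaps and chromosome lengths were not analysed here.

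Most neighbouring regions lay far apart. The median gap between neighbours on chromosomes 1 to 19 was 696214 bp, and 533 of 1282 gaps (41.6%) exceeded 1000000 bp. Apart from these, 265 gaps were short enough to join regions: 52 of at most 100 bp, 109 between 100 and 1000 bp and 104 between 1000 and 10000 bp. The next bin, from 10000 to 100000 bp, held 79 gaps, fewer than the 104 in the bin below it. If 1301 regions had independent and uniform positions over the listed range of each chromosome, 7.74 gaps of at most 10000 bp would be expected and 1.20% of regions would be clustered, against 26.7% in the list (95% Wilson interval 24.4 to 29.2%, counting error only). These reference values come from a formula and carry no p-value. The interval treats regions as independent, which regions of a group are not, so it may be too narrow.

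**Figure D1:**
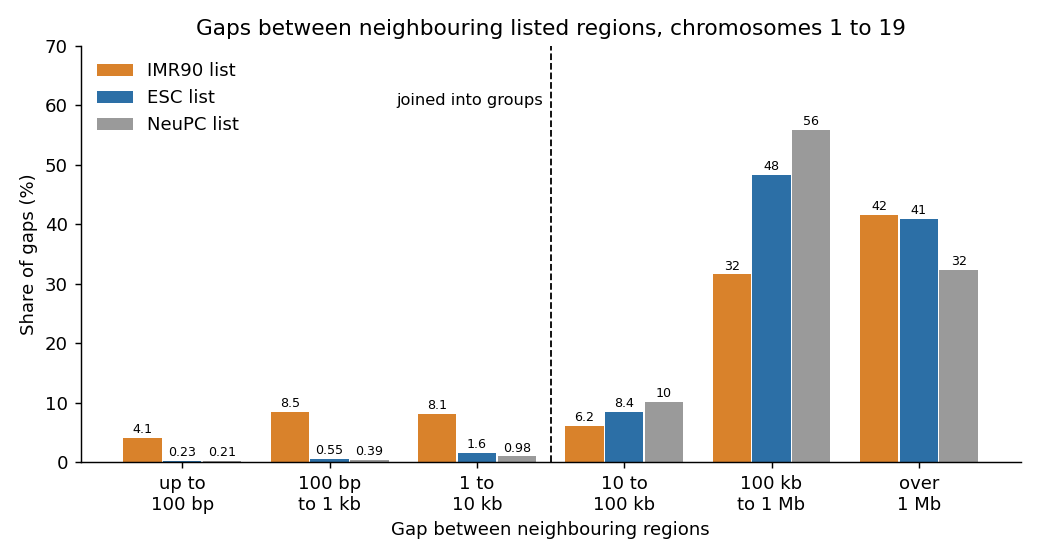
Gaps between neighbouring regions on chromosomes 1 to 19 (x axis, in bins of increasing width) as a share of all gaps of a list (y axis, %), for the IMR90, ESC and NeuPC lists. In the IMR90 list 4.06, 8.50 and 8.11% of gaps fall in the 3 bins that join regions, left of the dashed line, and in the other lists each of these bins holds at most 1.61%.

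The ESC and NeuPC lists were put through the same rule on the same chromosome names. The genome of the IMR90 positions was not settled, so the same name need not mean the same chromosome. In ESCs 88 of 2198 regions (4.0%) were clustered, in 36 groups, of which 35 were pairs. In NeuPCs 82 of 2871 regions (2.86%) were clustered, in 37 groups, of which 33 were pairs. Groups of 7 or more regions numbered 10 in the IMR90 list and 1 in each of the others. The median gap was 747513 bp in ESCs and 584718 bp in NeuPCs, against 696214 bp in the IMR90 list. The IMR90 list held fewer regions, 1301, so a similar median gap does not mean a similar density. The uniform reference shares of the ESC and NeuPC lists, 1.69 and 2.19%, lay nearer to their clustered shares than in IMR90. Clustered regions had about the length of isolated ones in those lists, with medians of 126.5 against 121 bp in ESCs and 121.5 against 121 bp in NeuPCs. The files of those lists name MACS, whereas the methods of the study describe a different caller. The part of the caller, or of the genome used, in these differences was not tested.

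Group size was uneven. A total of 55 groups were pairs, 12 held 3 regions, 6 held 4 or 5, and none held 6. The remaining 10 groups held 7 to 38 regions each and 175 regions together, which was 50.3% of the clustered regions. The median group spanned 1714 bp, with a range from 310 to 80858 bp. Its regions covered a median of 44.7% of the span, with a range from 2.20 to 97.9%.

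The limit of 10000 bp did not fall in a wide break of the gaps. The widest gaps inside it were 9859 bp on chromosome 8, 9732 bp on chromosome 11 and 9236 bp on chromosome 11. The narrowest gaps outside it were 10149 bp on chromosome 8, 10336 bp on chromosome 5 and 11003 bp on chromosome 2.

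The largest group lay on chromosome 1 from 90116916 to 90197774. Its 38 regions were 108 to 531 bp long, with a median of 167 bp, and covered 8111 of 80858 bp (10.0%). Gaps inside it ran from 60 to 7754 bp, with a median of 1420 bp. The lowest adjusted p-value was 2.21e-05 and the median 0.0132. It was thus the widest group and also a sparse one, made of separate short regions along its whole length.

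A group of the same sparse kind lay on chromosome 3 from 3001364 to 3032400. It held 17 regions of 116 to 274 bp that covered 9.75% of 31036 bp. The second largest group, on chromosome 17 from 3006719 to 3037703, held 29 regions of 100 to 716 bp over almost the same span, 30984 bp, and covered 25.3% of it. Their median gaps were 1180.5 and 566.5 bp. The group of 20 regions on chromosome 7 from 71218263 to 71235323 was more compact, with regions of 113 to 532 bp, a median gap of 471 bp and 27.4% of 17060 bp covered.

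The group on chromosome 11 from 3025588 to 3094376 differed from all of these in region length. It held 24 regions from 56 to 8871 bp, with a median of 636.5 bp, which covered 36592 of 68788 bp (53.2%). Of these, 9 exceeded 1000 bp. In order of position they were 2243, 1745, 2081, 8391, 2366, 8871, 1965, 1452 and 1710 bp long. The regions of 8871 and 8391 bp were the longest on chromosomes 1 to 19. This group alone held 32.1% of all bases in clustered regions.

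Regions with a median length of 641.5 bp, set close together, made up the group on chromosome 16 from 3231577 to 3241533. Its 12 regions of 187 to 1532 bp covered 82.2% of 9956 bp, no gap exceeded 392 bp, and 8 of the 12 had an adjusted p-value under 0.001. On chromosome 4 from 3006709 to 3018682, 11 regions of 117 to 2326 bp covered 54.8% of 11973 bp. The median gap in this group was 46.5 bp, and 10 of the regions followed each other at gaps of at most 100 bp while the last stood apart at a gap of 4994 bp. The 3 groups on chromosomes 11, 16 and 4 held 13 of the 14 regions over 1000 bp. The remaining one was isolated, on chromosome 17 from 39979939 to 39981910, 1971 bp long, with an adjusted p-value of 0.0425.

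**Figure D2:**
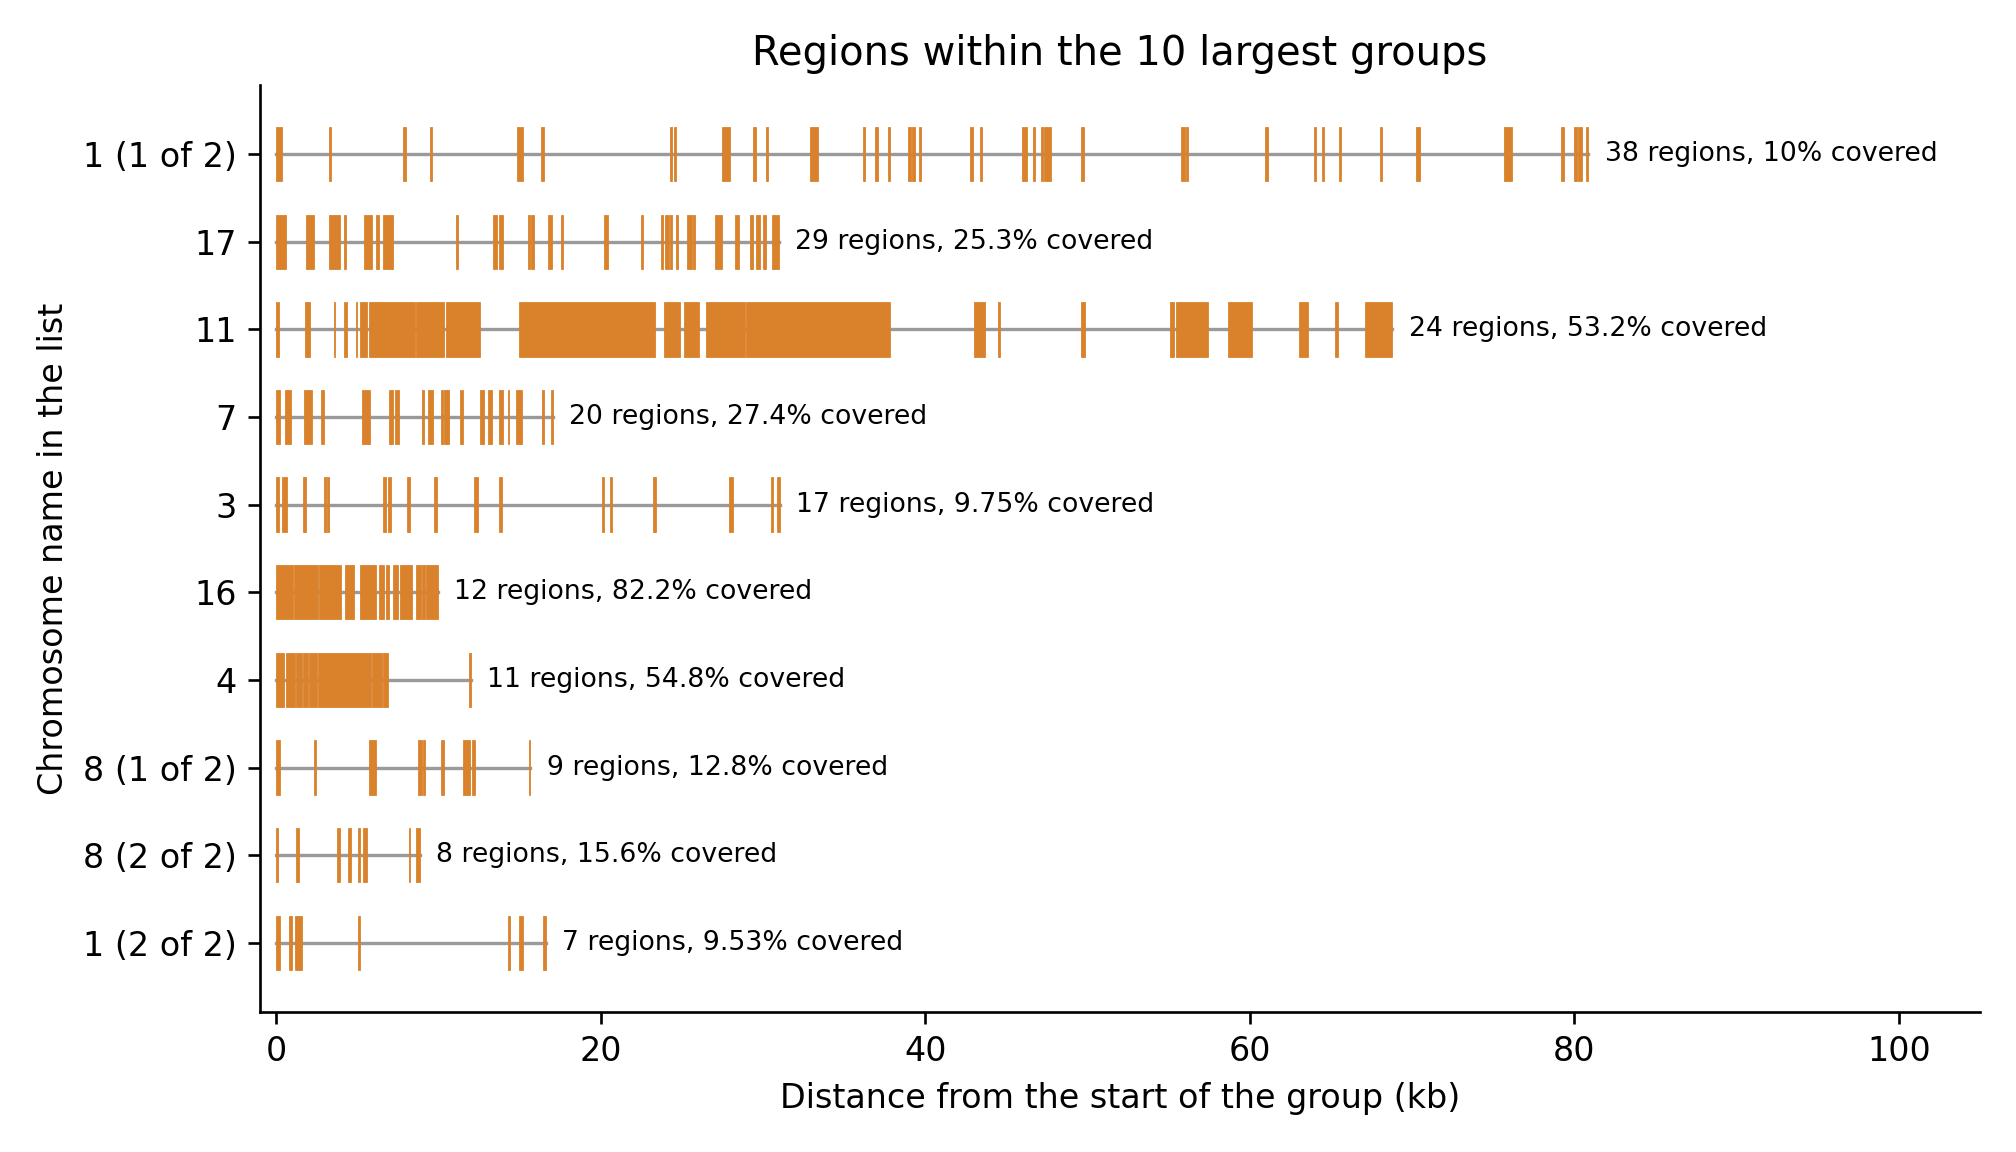
The 10 groups with the most regions, 1 per line, from the largest at the top. Orange bars are listed regions, drawn to scale with a thin outline, along the distance from the start of each group (x axis, kb), and the y axis gives the chromosome name in the list. Groups on chromosomes 11, 16 and 4 hold all bars over 1000 bp, 9, 3 and 1 of them, with 53.2 to 82.2% of the span covered. The others show separate short bars with 9.53 to 27.4% covered.

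The other 3 of the 10 largest groups were small and sparse. On chromosome 8, 9 regions lay from 19974043 to 19989695 (12.8% covered) and 8 regions from 19920255 to 19929083 (15.6% covered). On chromosome 1, 7 regions lay from 173460321 to 173476935 (9.53% covered). Their longest regions were 467, 261 and 453 bp, and their lowest adjusted p-values were 0.00324, 0.000449 and 0.00229.

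Groups also lay near other groups. In all, 14 groups had another within 100000 bp, on chromosomes 1, 2, 8 and 17. On chromosome 8, 7 groups with 32 clustered regions, together with 3 isolated regions, occupied 286632 bp from 19703063 to 19989695. The 35 regions were 63 to 467 bp long, with a median of 141 bp, and covered 2.03% of this stretch, and their median adjusted p-value was 0.0253. The stretch held 32 of the 38 clustered regions on chromosome 8. On chromosome 1, groups of 2, 7 and 4 regions followed each other between 173445205 and 173498120, at distances of 11541 and 17436 bp. On chromosome 17, a group of 5 regions began 39374 bp past the group of 29.

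Pairs were mostly tight. Of the 55 pairs, 33 spanned under 1000 bp, 31 covered over 50% of their span and 36 had a gap of at most 1000 bp, 16 of them of at most 100 bp. The closest pair, on chromosome 9 from 99342404 to 99342882, held regions of 101 and 367 bp at a gap of 10 bp. A further 16 pairs covered under 15% of their span, down to 2.20% on chromosome 11 from 77999174 to 78009125, where regions of 145 and 74 bp lay 9732 bp apart. Pairs thus ranged from almost continuous intervals to regions near the limit of the rule.

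Among groups of at least 3 regions, the highest share covered was 92.5%, on chromosome 7 from 89919714 to 89920563, where 3 regions of 74 to 461 bp lay at gaps of 8 and 56 bp. The lowest adjusted p-value there was 3.70e-22. The lowest value on chromosomes 1 to 19, given as 0, belonged to a region of 32 bp on chromosome 9 from 3002104 to 3002136. It formed a group of 3 with regions of 100 and 110 bp, between 3001836 and 3002377. The 3 regions had adjusted p-values of 0.0446, 0 and 1.76e-24 in order of position, so that the extreme values sat on very short regions.

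**Figure D3:**
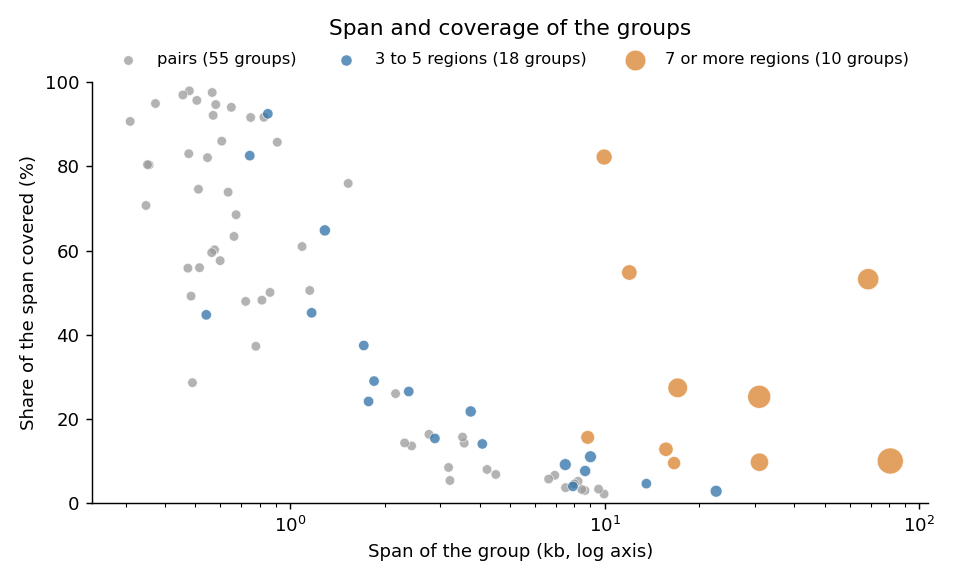
Each point is a group, by its span (x axis, kb, log axis) and the share of the span covered by regions (y axis, %), with point area rising with the number of regions. Pairs and groups of 3 to 5 run from high coverage at short spans to under 15% at longer ones, and 3 of the 10 groups of 7 or more lie above 50% at spans of 9956 to 68788 bp.

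Clustered regions were longer than isolated ones. The median length was 191.5 bp in clustered regions (95% order-statistic interval 170 to 201 bp, n = 348) and 141 bp in isolated regions (141 to 143 bp, n = 953). Both groups shared their lower range, with lower quartiles of 139 and 132 bp, and differed more at the top, with 95th percentiles of 738 and 257 bp. By group size the median was 168.5 bp in pairs, 163 bp in groups of 3 to 5 and 210 bp in groups of 7 or more. Over all regions of chromosomes 1 to 19, 3.15% exceeded 500 bp, against 35 of 348 clustered regions (10.1%) and 6 of 953 isolated regions (0.630%). Of the 35, 32 belonged to groups of 7 or more. Without the 3 groups that hold a region over 1000 bp, the median of the other 301 clustered regions was 173 bp (159 to 193 bp) and 10 of them exceeded 500 bp. Regions of a group share their source and are not replicates, so these intervals cover counting error only and no test was made.

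**Figure D4:**
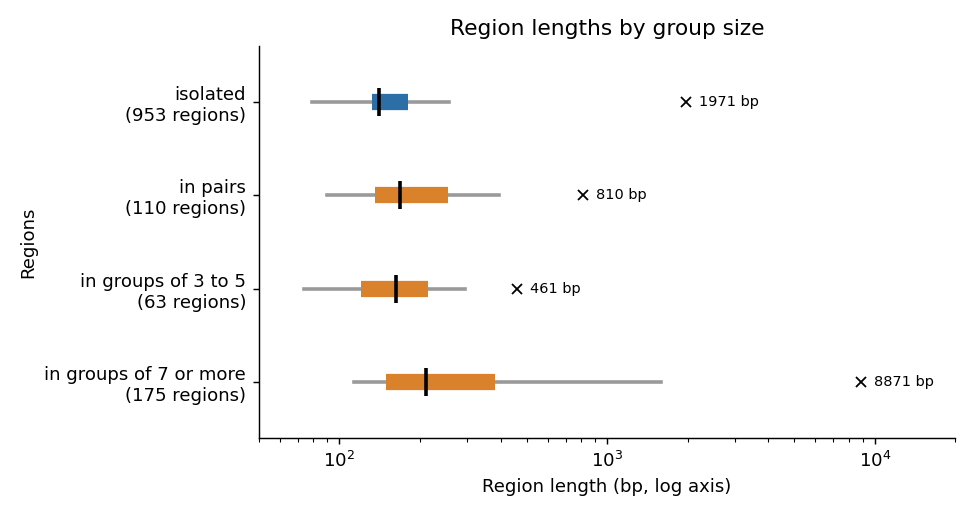
Length of isolated regions (blue) and of regions in pairs, in groups of 3 to 5 and in groups of 7 or more (orange), in bp on a log axis. Thick bars span the quartiles, thin lines the 5th to 95th percentiles, black ticks mark medians and crosses the longest region. The medians are 141, 168.5, 163 and 210 bp, and the upper range extends furthest in groups of 7 or more.

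Adjusted p-values, which the rule did not use, had nearly the same median in clustered and isolated regions, 0.0119 and 0.0132. The lower quartiles stood further apart, at 0.00243 and 0.00869. Over all regions of chromosomes 1 to 19, 9.53% had an adjusted p-value under 0.001, against 66 of 348 clustered regions (19%) and 58 of 953 isolated regions (6.09%). By group size the share was 15.5% in pairs, 17.5% in groups of 3 to 5 and 21.7% in groups of 7 or more. In the largest group, on chromosome 1, 3 of 38 regions were under 0.001. The values were coarse: the most frequent, 0.0132, occurred in 38 clustered and 217 isolated regions. Of the 20 lowest values on chromosomes 1 to 19, 11 belonged to clustered regions, while the second lowest there, 4.38e-84, belonged to an isolated region of 73 bp on chromosome 15.

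Clustered regions were unevenly spread over chromosomes. Chromosome 17 held 47 clustered among 86 regions (54.7%), chromosome 7 held 32 among 70 (45.7%) and chromosome 1 held 59 among 146 (40.4%). At the other extreme, chromosomes 12, 14 and 15 held 1 pair each, and none of the 27 regions on chromosome 19 was clustered. Chromosomes 5 and 8 had the most groups, 10 each, but the largest group held 3 regions on chromosome 5 and 9 on chromosome 8. Counting each group once, groups made up 2.27 to 15.2% of the separate loci of the 18 chromosomes that had any.

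**Figure D5:**
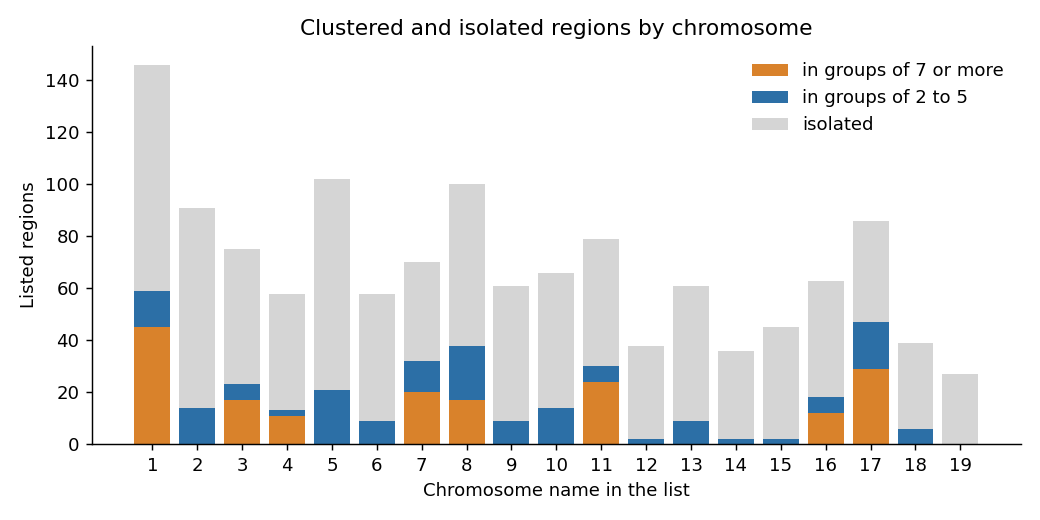
Number of listed regions (y axis) on each chromosome name (x axis), divided into regions in groups of 7 or more (orange), in groups of 2 to 5 (blue) and isolated (grey). Groups of 7 or more occur on chromosomes 1, 3, 4, 7, 8, 11, 16 and 17, and chromosome 19 has isolated regions only.

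Of the 83 groups, 10 lay at the low end of the listed positions. No region on chromosomes 1 to 19 started below 3001364, and within 1000000 bp of that position lay 117 regions on 11 chromosomes. Mouse assemblies open each of these chromosomes with a long unsequenced stretch, and whether the groups border such a stretch was not tested. Of the 117 regions, 107 (91.5%) were clustered, against 241 of the 1184 regions elsewhere (20.4%). They formed 10 groups on 8 chromosomes, and on each of the 8 the lowest listed region was part of a group. The window held 30.7% of the clustered and 1.05% of the isolated regions.

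The start of the group nearest to that position was at 3001364 on chromosome 3. Groups on chromosomes 9, 18, 4 and 17 started 472, 3500, 5345 and 5355 bp above it, and the group on chromosome 11 started 24224 bp above it. The second group of chromosome 17 followed at 75713 bp, the 2 groups of chromosome 16 at 112118 and 230213 bp, and a pair on chromosome 13 at 370781 bp. Within 100000 bp of the lowest start all 91 regions belonged to groups, 7 of them, on 6 chromosomes. On 5 chromosomes the first group thus started within 5355 bp of the same number. Among the smaller of these groups the adjusted p-values varied widely. In the pair on chromosome 18 from 3004864 to 3005727, regions of 176 and 256 bp had 0.0246 and 6.90e-14, whereas the lowest value in the second group of chromosome 17 was 0.00555.

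Clustered regions of this low window differed in length and adjusted p-value from the other clustered regions. Over all clustered regions of the window the median length was 232 bp against 171 bp elsewhere. Of the 35 clustered regions over 500 bp, 29 lay in the window, and so did all 13 over 1000 bp. Those 13 belonged to the group on chromosome 11 (9), the larger group on chromosome 16 (3) and the group on chromosome 4 (1). An adjusted p-value under 0.001 was found for 36 of 107 (33.6%) in the window and for 30 of 241 (12.4%) elsewhere. The same 3 groups held 11, 8 and 5 of the 36. The 10 isolated regions of the window had a median length of 124.5 bp, and none of them exceeded 178 bp. The longest clustered region elsewhere, of 810 bp with an adjusted p-value of 2.69e-48, belonged to a pair on chromosome 15 and began at 74916669. Outside the window, clustered regions still had a higher median length than isolated ones, 171 against 142 bp.

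At the high end, few groups were found. The last listed region belonged to a group on 2 of 19 chromosomes: a group of 3 on chromosome 13 from 120276557 to 120278939, and a pair on chromosome 2 from 181664911 to 181665736. A group of 3 on chromosome 2 ended 11828 bp before the end of that last region, and a pair on chromosome 18 ended 316460 bp before. Within 1000000 bp of the last listed region of each chromosome, 10 of 35 regions (28.6%) were clustered, near the 26.7% of all regions, but within 5000000 bp the share was 16 of 141 (11.3%). These windows hold the last region of all 19 chromosomes by construction. The low window was set from 1 position and held regions of 11 chromosomes, so the shares at the 2 ends are not like for like. The pair on chromosome 2 was compact, with regions of 358 and 398 bp at a gap of 69 bp and a lowest adjusted p-value of 2.17e-13. How far these regions lie from the true chromosome ends was not analysed here.

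Each listed region carries a number, which rises with position on all 19 chromosomes. The highest number is 2594 for 1400 regions, so that 1194 numbers up to it are not in the list, and what they stand for is not stated. Of the 265 steps between neighbours within groups, 173 (65.3%) joined consecutive numbers, against 635 of 1017 steps (62.4%) elsewhere. The share was 59.4% of 165 steps in groups of 7 or more, and 75 of 100 steps did so in smaller groups. Within groups 191 numbers were passed over, a mean of 0.721 per step, against 901 elsewhere, a mean of 0.886 per step. Of the 191, 48 were in the largest group, on chromosome 1, and 29 in the group on chromosome 11. The group of 20 on chromosome 7 passed over 2 numbers, and those on chromosomes 16 and 4 passed over 1 each.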

How the data were processed

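The list is named for IMR90 cells, and the study describes calling of regions on NUP98 ChIP-Seq of these cells. Whether the listed positions come from those reads was not tested. The study's methods describe calling with the Audic-Claverie algorithm in Genomatix; version, parameters and the libraries used are not given in the sources used here. The submitters' processing notes name hg19 and GRCh37 for the series. The deposited IMR90 list gives each region a position and an adjusted p-value, none above 0.0498. The deposited ESC and NeuPC lists give a MACS score per region, which was not needed beyond reading positions. Listed positions were used unchanged, so IMR90 starts may be counted from 0 or 1, and lengths are end minus start. Neighbours were joined at gaps of at most 10000 bp, from the end of a region to the start of the next, and no regions overlapped. Medians carry 95% binomial order-statistic intervals and shares Wilson intervals, covering counting error only and treating regions as independent. The uniform reference is 1 minus the exponential of minus 2 times gap times region density, per chromosome. Groups named in the text were the 10 with the most regions, and those with the widest span, the highest share covered, the longest region and the lowest adjusted p-value. Other positions, among them the chromosome 8 stretch and the groups at the ends, were named after their values were seen. The rule, the members and the choices were made with earlier results of these data known. Python 3.11.15, numpy 2.4.6, pandas 2.3.3 and scipy 1.17.1 were used, and grouping was tested on simulated data.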

Additional observations from a re-analysis of the deposited data

How the results depend on the processing

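Over 77 comparisons with an alternative, 60 left a value within its interval or a count within 1.5 times. Keeping the 50% of the list with the lowest adjusted p-values removed regions by construction. It gave 153 clustered regions in 37 groups, at most 20 in a group, a clustered share of 24.0% and median lengths of 241 bp in clustered and 156 bp in isolated regions. Joining at up to 2000 bp gave a largest group of 16 and a share of 21.7%. Joining at up to 50000 bp gave a share of 31.7%, a median span of 7921 bp and a median coverage of 10.0%. Groups of at least 3 regions numbered 28, with 18.3% of regions, a median span of 8293 bp and a median coverage of 23.0%. With X included the share was 30.4%. Leaving out the 10 groups of the low window, a setting added once the values had been seen, gave 20.2%, and the median length of clustered regions, 171 bp, stayed above that of isolated regions. Low-window groups numbered 7 within 100000 bp and 11 within 5000000 bp. Depth was not used here and there is 1 list, so a region absent from it is not evidence of no binding. No paired analysis was possible because no replicate list was used.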

Other observations

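The regions on X, which the rule leaves out, held 77 clustered among 99 regions (77.8%), in 7 groups. The largest, of 44 regions between 166407643 and 166446857, had a median region length of 475.5 bp and a longest region of 4589 bp, with a median gap of 125 bp and 71.4% of its span covered. Its lowest adjusted p-value was given as 0 and its median was 1.49e-07. The next, of 14 regions between 32092406 and 32123573, covered 8.04% of its span with regions of 74 to 484 bp, and groups of 8 and 5 regions lay at 4247782 and 4658593. Over X the median length was 210 bp in clustered and 134.5 bp in isolated regions.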
